A study of Mus musculus with 2 samples.

Results

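Fas, Fadd, Casp8, Cflar, Ripk1, Ripk3, Mlkl, Birc2 and Birc3 encode the core of the death receptor and necroptosis pathway. These 9 genes were picked by name out of the 35522 features in each expression table. The list of names was drawn up with earlier results of these data known, so it was not blind to the values. All 9 names were found in both tables. The RNA came from mouse bone marrow neutrophils, sorted as CD11b-positive, Ly-6G-high and Ly-6C-low or negative cells from Balb/C mice. Both cultures were kept for 3 days in RPMI-1640 containing the myeloid cytokine GM-CSF at 10 ng/ml. The PBS culture received the vehicle only. The exosome culture received 20 µg/ml of exosomes, which are small secreted vesicles, from tumor stem-like cells that had been expanded from CT26, a murine colon carcinoma line, in a defined stem cell medium. Both groups therefore shared the sort, the strain and GM-CSF, and no culture without GM-CSF and no freshly sorted cells were analysed here.

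With a single library for PBS and a single library for exosomes, replicate error is unknown and no difference below was tested. Whether several animals were pooled is not stated. Levels are RPKM, that is, reads scaled by exon length and by the mapped reads of the library, which allows genes of different length to be compared within a library. Changes are ratios of the exosome RPKM to the PBS RPKM, or the log2 of that ratio. The depth was estimated at 65.96 M (mega) mapped reads in the PBS library and 79.13 M in the exosome library. The 95% intervals given with ratios come from read numbers estimated with these depths. They cover counting error only, since reads carry no molecular identifiers and cultures were not repeated. In a culture of mixed or dying cells, fewer cells of a type and less RNA per cell cannot be told apart.

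Fas is a receptor of the TNF receptor family whose intracellular death domain recruits the adaptor FADD when Fas ligand binds. FADD gathers caspase-8, which starts apoptosis, and the catalytically inactive relative c-FLIP (gene Cflar), which limits caspase-8 activation. When caspase-8 is held back, the kinases RIPK1 and RIPK3 can pass the signal to MLKL, a pseudokinase that permeabilises the plasma membrane in necroptosis, and the ubiquitin ligases cIAP1 (Birc2) and cIAP2 (Birc3) ubiquitinate RIPK1 in the TNF receptor complex. Mature neutrophils are short-lived cells, and the Fas pathway is one of the known routes of their death.

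Of the 9 genes, Fas and Birc3 were by far the most abundant in both libraries, and Mlkl was close to the limit of detection in both. Counts were restricted to genes with 0.25 RPKM or more in each library, a minimum that 8 of the 9 genes met and Mlkl did not. Fas, Fadd, Casp8, Cflar, Ripk3 and Birc3 were at least 2-fold higher with exosomes, so 6 of 8 genes were called higher. Ripk1 and Birc2 lay within 2-fold, and 0 of 8 were called lower. Among all 9698 genes that met the same minimum, 31.5% were at least 2-fold higher and 5.62% at least 2-fold lower. Only Fadd was at least 4-fold higher, which 8.52% of all genes were, and none of the 8 was at least 4-fold lower, which 1.14% of all genes were. The median log2 ratio of the 8 genes was 1.22, beside 0.53 for all genes. With 8 genes and no replicates, these counts describe the pair of libraries and nothing particular to the pathway was tested.

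**Figure D1:**
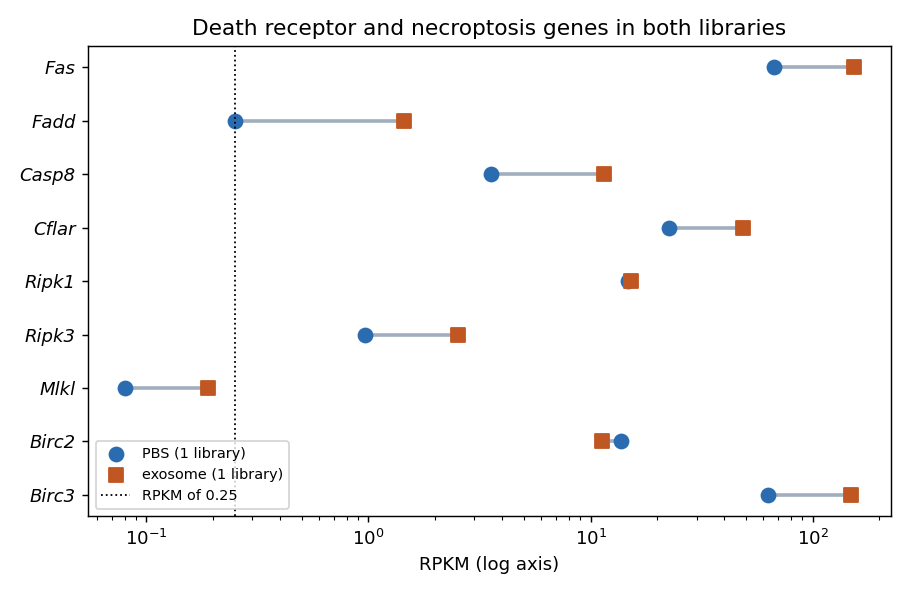
RPKM of the 9 death receptor and necroptosis genes on a log axis, with a circle for the PBS library, a square for the exosome library (1 library each) and a line joining the values of a gene. Fas and Birc3 moved from above 60 to between 149 and 154 RPKM, Ripk1 and Birc2 stayed between 11.2 and 15.3 RPKM, and both Mlkl values lay left of the dotted line at 0.25 RPKM.

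All 9 genes have promoter windows in RefSeq on GRCm38.p6, with 11 start sites in all. The 250 bases upstream of the start site are shown for Fas, Casp8 and Birc3, out of the 6 genes called higher with exosomes. They are also shown for Birc2, the paralog and neighbour of Birc3 that was not higher. Capitals mark matches, on either strand, to short motifs of factors known to act on inflammatory genes, and each sequence is read 5′ to 3′ on the strand of its gene.

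Fas, chr19:34290409-34290658, plus strand: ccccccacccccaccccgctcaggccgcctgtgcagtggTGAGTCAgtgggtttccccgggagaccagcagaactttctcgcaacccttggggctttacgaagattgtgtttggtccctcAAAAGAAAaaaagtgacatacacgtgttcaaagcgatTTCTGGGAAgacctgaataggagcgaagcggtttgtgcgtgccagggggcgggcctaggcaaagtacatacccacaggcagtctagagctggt

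Casp8, chr1:58802252-58802501, plus strand: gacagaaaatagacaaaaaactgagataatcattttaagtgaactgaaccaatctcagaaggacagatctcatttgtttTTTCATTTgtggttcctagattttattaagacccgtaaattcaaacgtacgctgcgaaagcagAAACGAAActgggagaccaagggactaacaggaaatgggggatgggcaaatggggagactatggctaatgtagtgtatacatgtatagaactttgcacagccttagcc

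Birc3, chr9:7873171-7873420, minus strand: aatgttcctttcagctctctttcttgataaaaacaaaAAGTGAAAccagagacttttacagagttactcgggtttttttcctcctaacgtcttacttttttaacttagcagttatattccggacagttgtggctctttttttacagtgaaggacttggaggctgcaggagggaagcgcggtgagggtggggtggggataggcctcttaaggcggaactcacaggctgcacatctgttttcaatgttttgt

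Birc2, first start site, chr9:7837058-7837307, minus strand: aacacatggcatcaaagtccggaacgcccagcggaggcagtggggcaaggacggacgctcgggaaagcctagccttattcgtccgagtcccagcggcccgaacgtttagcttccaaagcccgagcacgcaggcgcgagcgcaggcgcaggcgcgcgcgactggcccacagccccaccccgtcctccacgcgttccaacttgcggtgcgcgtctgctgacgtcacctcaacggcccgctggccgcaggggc

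The Fas window held an AP-1 motif (TGANTCA, the site of Fos and Jun proteins), an IRF half-site (AANNGAAA, bound by interferon regulatory factors) and a GAS motif (TTCNNNGAA, bound by STAT proteins). The Casp8 window held 2 IRF half-sites and the Birc3 window held 1. The windows of Fadd, Cflar and Ripk3, also called higher but not shown, held no match to any motif searched. The Birc2 window shown held none of these letters. The window of the second Birc2 start site, not shown, held overlapping IRF half-sites that begin 26, 21 and 16 bases before the start. Over both Birc2 start sites, the motif therefore does not separate Birc3 from Birc2. The Casp8 window lies inside the annotated span of the gene, 58795374 to 58847503, so it precedes an internal start site and not the 5′ end of that span. The 16 bases nearest the start in the Birc3 window and the 7 nearest in the Birc2 window shown lay in an annotated first exon. All 250 bases of the second Birc2 window lay in annotated Birc2 exons. In the second Ripk1 window, 171 bases lay in exons of Ripk1 or Serpinb6a. Over all start sites, 4 of the 9 genes (Fas, Casp8, Birc2 through its second start site, and Birc3) held an IRF half-site, as did 23.9% of 27025 genes. AP-1 was held by 1 of the 9 genes and 7.82% of all genes, and GAS by Fas and, through its second start site, Ripk1, against 8.13% of all genes. The NF-kB consensus was held by none of the 9 genes and 4.46% of all genes, and the full interferon-stimulated response element, a pair of GAAA with any 2 bases between, by none of the 9 and 3.46%. The motifs were chosen after the promoters had been seen. A match is only a run of letters, the strands and motifs can overlap, and the absence of letters in this window says nothing about a factor. The reference comes from C57BL/6J, not from Balb/C.

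Fas, the receptor, lies on chromosome 19 from 34290666 to 34327772 on the plus strand of GRCm38. It stood at 67.2 RPKM in PBS and 154 RPKM with exosomes, the highest level of the 9 genes in each library. The ratio was 2.29, a log2 ratio of 1.19 with a counting interval of 1.15 to 1.23. Among all features detected in a library, Fas stood at the 94.8th percentile in PBS and the 98.0th with exosomes. About 7203 and 19754 reads lay behind the values, so counting error was small. Because log2 ratios differed with expression level in these libraries, each gene was also set beside the genes whose mean log2 RPKM lay within 0.5 of its own. The 386 such genes around Fas had a median log2 ratio of 0.05, and 8.81% of them had a ratio as high as that of Fas or higher.

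Fadd, the adaptor, lies on chromosome 7 from 144577318 to 144582463 on the minus strand. It stood at 0.25 RPKM in PBS, exactly at the minimum, and at 1.45 RPKM with exosomes. The ratio was 5.80, a log2 ratio of 2.54 with an interval of 2.16 to 2.95, the largest of the 9 genes when no pseudocount was added. With a pseudocount of 0.25 its log2 ratio was 1.77, and with a pseudocount of 1 it was 0.97, which is no longer a call and lies below the 1.46 of Casp8. It rested on about 64 reads in PBS and 448 with exosomes, and rounding of the table alone allowed ratios from 5.67 to 5.94. Of its 3903 exon bases, 239 also belong to exons of Faddos, an antisense gene, and whether reads were counted by strand is not stated. Genes at this level had high ratios in general, since the 820 genes around Fadd had a median log2 ratio of 0.85 and 45.4% of them were at least 2-fold higher. Of those genes, 4.63% had a ratio at least as high as that of Fadd.

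Casp8, the initiator caspase, lies on chromosome 1 from 58795374 to 58847503 on the plus strand. It stood at 3.57 RPKM in PBS and 11.6 RPKM with exosomes. The ratio was 3.24, a log2 ratio of 1.69 with an interval of 1.56 to 1.82. Among the 1486 genes around its level the median log2 ratio was 0.68, and 10.8% were changed as much or more upward.

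Cflar, whose product c-FLIP competes with caspase-8 for the adaptor, lies 36.5 kb from Casp8 on the same strand of chromosome 1, from 58711508 to 58758884. It stood at 22.6 RPKM in PBS and 48.5 RPKM with exosomes. The ratio was 2.14, a log2 ratio of 1.10 with an interval of 1.07 to 1.13, which is just above the 2-fold line. The 959 genes around its level had a median log2 ratio of 0.20, and 11.5% of them had a ratio at least as high. The annotation gives Cflar 13 transcripts, and 1 RPKM per gene cannot separate the long form of c-FLIP from the short ones.

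Without a pseudocount, the ratio of Cflar was smaller than those of the partners it acts with, but beside Fadd this depended on the pseudocount. The ratio of Cflar to Casp8 within a library, which needs no scaling between the libraries, was 6.34 in PBS and 4.20 with exosomes. The log2 difference was -0.59 with an interval of -0.73 to -0.46. Cflar over Fadd was 90.5 in PBS and 33.4 with exosomes, a log2 difference of -1.44 with an interval of -1.82 to -1.06. Fadd also changed more than Casp8, with a log2 difference of 0.84 and an interval of 0.44 to 1.24. After level-wise centring, described below, the log2 difference of Cflar and Casp8 was -0.11 and that of Cflar and Fadd -0.78, and with a pseudocount of 1 that of Fadd and Casp8 turned to -0.49. The difference of Cflar and Fadd was -0.67 with a pseudocount of 0.25 and reversed to 0.10 with a pseudocount of 1. Cflar remained the most abundant of the 3 transcripts in both libraries.

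Ripk1, a kinase with roles in survival signalling as well as in death, lies on chromosome 13 from 34002363 to 34037147 on the plus strand. It stood at 14.7 RPKM in PBS and 15.3 RPKM with exosomes, and the groups were nearly equal. The log2 ratio was 0.06 with an interval of 0.01 to 0.11, and 68.5% of the 1571 genes around its level had a ratio at least as high. Of its 8344 exon bases, 752 are shared with Serpinb6a or Gm17084.

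Ripk3, the kinase that phosphorylates MLKL, lies on chromosome 14 from 55784995 to 55788865 on the minus strand. It stood at 0.96 RPKM in PBS and 2.53 RPKM with exosomes, low in both libraries and higher in the latter. The ratio was 2.64, a log2 ratio of 1.40 with an interval of 1.11 to 1.71, from about 124 and 393 reads. With a pseudocount of 1 the log2 ratio was 0.85, which is no longer a call. At this level most genes were higher too. Of the 1215 genes around Ripk3, 54.9% were at least 2-fold higher, their median log2 ratio was 1.12, and 39.5% had a ratio at least as high as that of Ripk3.

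Mlkl, the executor of necroptosis, lies on chromosome 8 from 111311797 to 111338177 on the minus strand. It stood at 0.08 RPKM in PBS and 0.19 RPKM with exosomes, from about 11 and 30 reads. Its log2 ratio of 1.25 had an interval of 0.15 to 2.33, so the size of its change could not be measured at this depth. Mlkl was left out of all counts.

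The kinases of the necrosome were far apart in level. Ripk1 exceeded Ripk3 15.3-fold in PBS and 6.04-fold with exosomes, and the log2 ratio of Ripk3 exceeded that of Ripk1 by 1.34 with an interval of 1.05 to 1.64 (0.57 after level-wise centring). Ripk3 exceeded Mlkl 12.0-fold in PBS and 13.3-fold with exosomes. The difference between the changes of Mlkl and Ripk3 was -0.15 with an interval of -1.19 to 0.89, which includes 0. Ripk3 and Mlkl together made up 0.559% of the summed RPKM of the 9 genes in PBS and 0.691% with exosomes.

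Birc2 and Birc3, which encode cIAP1 and cIAP2, lie side by side on the minus strand of chromosome 9, with 11.6 kb between them. Birc2, from 7818227 to 7837064, stood at 13.8 RPKM in PBS and 11.2 RPKM with exosomes. It was the only one of the 9 genes that was lower with exosomes, with a ratio of 0.815 and a log2 ratio of -0.29 (interval -0.37 to -0.22). Birc3, from 7848699 to 7873186, stood at 63.1 RPKM in PBS and 149 RPKM with exosomes. Its ratio was 2.37, a log2 ratio of 1.24 with an interval of 1.21 to 1.27. The 402 genes around Birc3 had a median log2 ratio of 0.00, and 7.46% of them had a ratio at least as high, the smallest such share among the 8 genes tested after that of Fadd. The 1600 genes around Birc2 had a median of 0.38, and 84.8% of them had a ratio at least as high as that of Birc2.

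The neighbouring paralogs therefore parted. Birc3 exceeded Birc2 4.58-fold in PBS and 13.3-fold with exosomes, a log2 difference of 1.54 with an interval of 1.46 to 1.62. The coding sequences of the pair are related, and how reads matching both were counted is not stated.

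**Figure D2:**
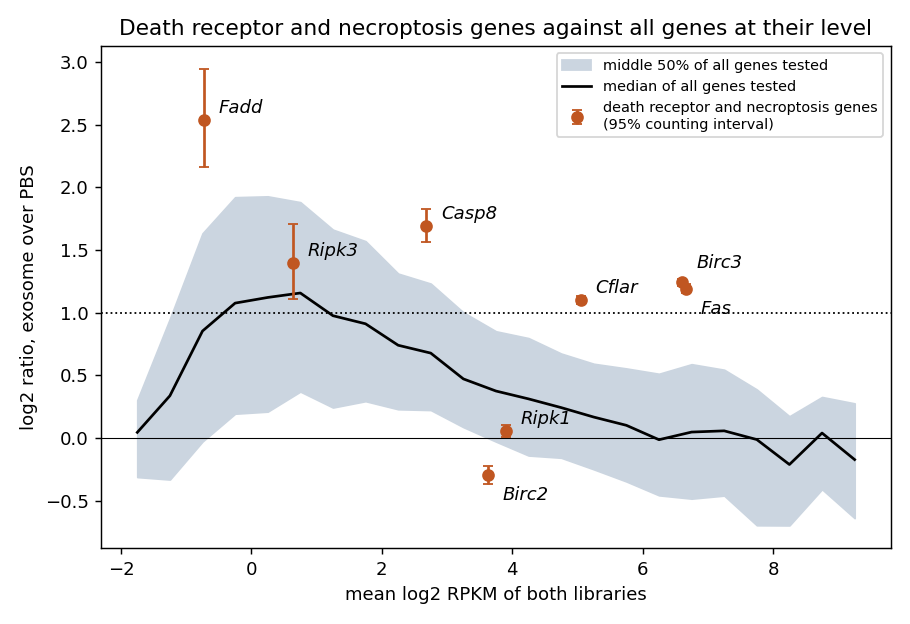
Log2 ratio of exosome over PBS RPKM against the mean log2 RPKM of both libraries for the 8 genes with at least 0.25 RPKM in both (points, with 95% counting intervals), over the median (line) and middle 50% (band) of all 9698 genes, and a dotted line at 2-fold. Fadd, Casp8, Cflar, Fas and Birc3 lay above the band, Ripk3 and Ripk1 within it, and Birc2 below it.

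**Figure D3:**
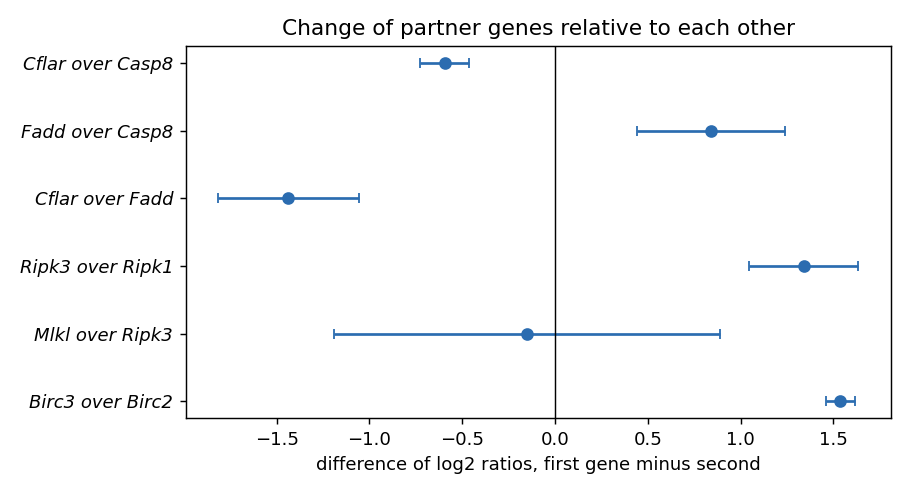
Difference of the log2 ratios (exosome over PBS) of partner genes, first gene minus the other, for 6 pairs, with 95% counting intervals as bars and a line at 0. Birc3 over Birc2 stood highest at 1.54, Cflar over Fadd lowest at -1.44, and only the interval of Mlkl over Ripk3 crossed 0.

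The order of the levels changed at 1 place. In PBS it ran Fas, Birc3, Cflar, Ripk1, Birc2, Casp8, Ripk3, Fadd and Mlkl. With exosomes Casp8 stood above Birc2, at 11.6 and 11.2 RPKM, a log2 difference of 0.04 with an interval of -0.04 to 0.12. These were the only neighbours in either order that did not differ beyond counting error. The summed RPKM of the 9 genes was 186 in PBS and 394 with exosomes. Fas and Birc3 held 70.0% of that sum in PBS and 77.0% with exosomes, while Ripk1 and Birc2 held 15.3% and 6.74%.

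Another scaling of the libraries changed several of these calls. When the median log2 ratio of all genes, 0.53, was subtracted, only Fadd (2.01) and Casp8 (1.17) remained at least 2-fold higher, and the share of all genes called higher went from 31.5% to 16.8%. Under that centring Fas stood at 0.67, Birc3 at 0.72, Ripk3 at 0.87 and Cflar at 0.57, and Ripk1 turned from 0.06 to -0.47. When each gene was centred on the genes of its own level, Fas (1.15), Fadd (1.69), Casp8 (1.02) and Birc3 (1.24) stayed at least 2-fold higher. Cflar was then at 0.90 and Ripk3 at 0.27, and 12.7% of all genes were called higher. Birc2 was below 0 and within 2-fold under every scaling tried. The tables do not settle which scaling fits these cells.

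**Figure D4:**
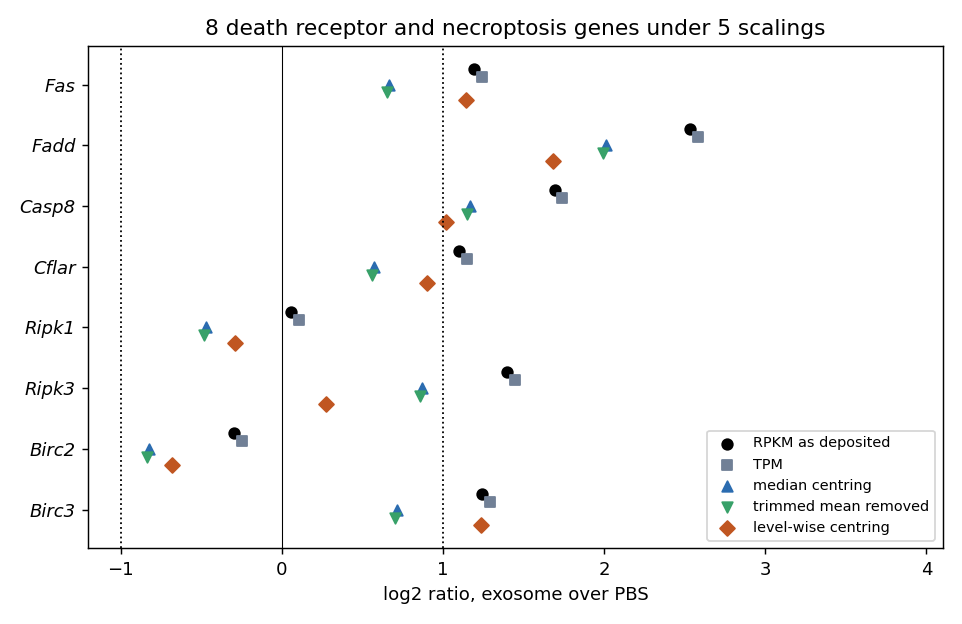
Log2 ratio of exosome over PBS for the 8 genes tested under 5 scalings, with dotted lines at 2-fold. Fadd and Casp8 lay above 2-fold under all 5 scalings and Ripk1 changed sign.

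The wider pathway was described with lists of ligands, receptors, signalling kinases, caspases, inhibitors and necroptosis partners. Apart from the 9 genes, 106 listed genes were in the tables and 91 met the minimum, of which 26 (28.6%) were called higher and 4 (4.40%) lower. These shares were near those of all genes, 31.5% and 5.62%, and the median log2 ratio was 0.42.

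Among the ligands, Fasl, the ligand of Fas, was at 0.04 RPKM in PBS and 0.05 with exosomes, and Tnfsf10 (TRAIL) at 0.03 and 0.04 RPKM, too low to compare. Tnf, the ligand of the TNF receptors, was abundant, at 72.1 RPKM in PBS and 225 RPKM with exosomes, a log2 ratio of 1.64. It was the only one of 3 ligands tested (33.3%) to be called, beside 31.5% of all genes called higher.

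Of 9 receptors tested, 2 (22.2%) were called higher, beside 31.5% of all genes. They were Fas and Tnfrsf1b (TNFR2, which has no death domain), the latter at 136 and 287 RPKM with a log2 ratio of 1.08. Tnfrsf1a, the TNF receptor with a death domain, stood at 190 and 128 RPKM, a log2 ratio of -0.57. Tnfrsf10b, the TRAIL receptor, was at 0.1 and 0.19 RPKM and was not tested. In RPKM as deposited, the Fas value was thus higher and the Tnfrsf1a value lower with exosomes, the latter within 2-fold. These calls depend on the scaling. Subtracting the median of all genes, 0.53, leaves Fas at 0.67, no longer a call, and moves Tnfrsf1a beyond 2-fold lower. Centring on genes of the same level leaves Fas a call, at 1.15. The 114 genes of a mean level similar to that of Tnfrsf1a had a median log2 ratio of 0.06, below the 0.53 of all genes.

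Of 28 genes of the TNF receptor complex and its ubiquitin editing, 6 (21.4%) were called higher and 2 (7.14%) lower. The shares of all genes were 31.5% and 5.62%. Tnip1, which binds A20, stood at 53.0 and 223 RPKM (log2 ratio 2.07), Ikbke, an IKK-related kinase, at 19.6 and 198 RPKM (3.34), and Fam105b, the older symbol of the linear deubiquitinase Otulin, at 12.5 and 59.9 RPKM (2.26). Tnfaip3, which encodes A20, was at 40.2 and 75.8 RPKM (0.91), and Cyld, another deubiquitinase, at 11.8 and 10.4 RPKM (-0.18). Both lay within 2-fold.

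Of 11 adaptors and initiator caspases tested, 5 (45.5%) were called higher, and 2 of 8 (25%) when Fadd, Casp8 and Cflar were left out. The share of all genes called higher was 31.5%. Of 12 executioner caspases and substrates, 5 (41.7%) were higher and 2 (16.7%) lower, beside 31.5% and 5.62% of all genes. The median log2 ratio of these 12 genes was 0.73, beside 0.53 for all genes.

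Of 9 inhibitors of apoptosis and their antagonists tested, 5 (55.6%) were higher, and 4 of 7 (57.1%) without Birc2 and Birc3. The share of all genes was 31.5%, and with so few genes the difference was not tested. Xiap, which inhibits caspases directly, was at 23.99 and 29.5 RPKM (0.30). Xaf1, an XIAP antagonist, was at 0.54 and 4.05 RPKM (2.91). Its PBS value was low, no counting interval is given, and the 620 genes of a similar mean level had a median log2 ratio of 1.16. The other IAP antagonists with a call, named after their values were seen, were Diablo at 4.77 and 11.6 RPKM (1.29) and Htra2 at 12.6 and 26.5 RPKM (1.07). Naip5, a gene of the IAP family and not an antagonist, was also called higher, at 0.87 and 2.43 RPKM (1.48). The Xiap value lay below the median of all genes, 0.53, so its sign depends on the scaling.

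Of 27 necroptosis kinases, partners and inputs tested, 8 (29.6%) were higher and 0 lower. Without Ripk1 and Ripk3, 7 of 25 (28%) were higher. Over all genes 31.5% were higher and 5.62% lower, so the share called higher was near that of all genes. Zbp1, a nucleic acid sensor that can engage RIPK3, was at 0.34 RPKM in PBS and 6.11 RPKM with exosomes, a ratio of 18.0. The PBS value of Zbp1 was close to the minimum of 0.25 RPKM, so the size of this ratio is uncertain, and no counting interval is given. The 620 genes of a similar mean level had a median log2 ratio of 1.16. Eif2ak2, which encodes the interferon-induced kinase PKR, was at 1.71 and 7.78 RPKM (log2 ratio 2.19). Mlkl remained below 0.25 RPKM beside these upstream genes. The 4 listed genes called lower, named after their values were seen, were Ikbkg (NEMO, 47.4 and 16.7 RPKM), Tbkbp1 (45.6 and 18.6 RPKM), Bid, the BH3-only substrate of caspase-8 (47.9 and 18.7 RPKM), and Dfna5, the older symbol of gasdermin E (98.2 and 26.2 RPKM).

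**Figure D5:**
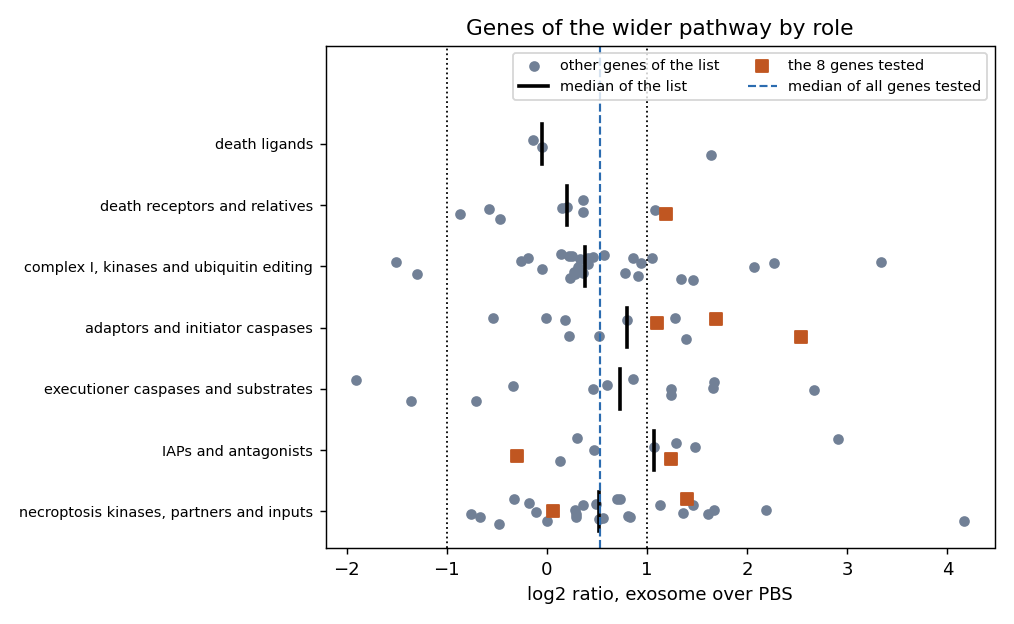
Log2 ratio of exosome over PBS for the listed pathway genes with at least 0.25 RPKM in both libraries, grouped by role, with squares for the 8 genes tested, circles for other genes, a bar for the median of a list, a dashed line for the median of all genes and dotted lines at 2-fold. The highest point is Zbp1 at 4.17 and the lowest Dfna5 at -1.91.

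Markers of other cells moved beside these results. Of 12 neutrophil markers, 11 had a lower value with exosomes, 10 of them at least 2-fold lower, beside 5.62% of all genes. The summed RPKM of the 12 was 84592 in PBS and 30465 with exosomes, so that neutrophil transcripts were abundant in both libraries. Most of that sum came from S100a8 (32823 and 14382 RPKM) and S100a9 (43059 and 13834 RPKM). Of 12 monocyte or macrophage markers, 11 had a higher value, with a summed RPKM of 349 and 500. Only 7 of the 12 met the minimum of 0.25 RPKM, of which 4 were called higher and 1 lower, beside 31.5% and 5.62% of all genes. The most abundant of the 12 in PBS, Ly6c2, was the lower one, at 184 and 37.1 RPKM. Those called higher were Csf1r (58.1 and 153 RPKM), Emr1 (20.9 and 152 RPKM), C1qb (0.3 and 2.3 RPKM) and C1qc (0.27 and 3.79 RPKM). The PBS values of C1qb and C1qc were close to the minimum. Cd68, at 83.9 and 146 RPKM, lay within 2-fold. T or NK cell markers summed to 58.0 and 7.97 RPKM, almost all from Cd3d, with Trbc2 at 0 in both libraries. B cell markers summed to 108 and 66.9, dendritic cell markers to 11.9 and 6.32, eosinophil, basophil or mast cell markers to 10.7 and 6.37, and erythroid markers to 2.55 and 0.375 RPKM. Markers of the CT26-like tumor cell summed to 0.59 and 0.202 RPKM, with Krt8, Col1a1, Col1a2 and Lgals7 at 0 in both. The part of these shifts in the changes of Fas, Birc3, Casp8 and the other genes was not tested.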

How the data were processed

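Neutrophil mRNA libraries (TruSeq Standard mRNA) from 1 PBS and 1 exosome culture were sequenced by the authors on an Illumina instrument, trimmed by base quality and analysed in CLC Genomics Workbench. The authors deposited RPKM per feature and library. The submitters' processing notes name mm10 (GRCm38). The annotation, strand use, treatment of multi-mapped reads and scaling between libraries are not given in the sources used here.

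The 9 genes and all lists were chosen with earlier results of these data known. Genes with RPKM of at least 0.25 in both libraries were kept, and calls were made at ratios of at least 2 or at most 0.5 without a pseudocount. Named genes were the 9 members, 11 pathway genes fixed whatever their change, and listed genes changed at least 4-fold. Some genes that this rule names are not reported here. Depth was estimated by reading RPKM below 0.01 as 1 read, with the longest GENCODE M21 transcript as length (236 of 918 features in PBS and 271 of 1064 with exosomes gave it). Intervals are Clopper-Pearson on estimated reads for single genes and a normal approximation on log reads for pairs. Promoters came from RefSeq (GRCm38.p6). Older symbols were matched through RefSeq synonyms. The listed names Pea15, Pidd, Septin4 and Traf5 were not matched, although Pea15a and Lrdd were. Alternatives were other scalings, minimums, pseudocounts and ratios. Steps were tested on simulated data. Python 3.11.15, NumPy 2.4.6, pandas 2.3.3, SciPy 1.17.1 and matplotlib 3.10.9 were used.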

Additional observations from a re-analysis of the deposited data

How the results depend on the processing

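Of the 8 genes tested, the number called higher was 6 as reported, as TPM, with a pseudocount of 0.25 and at a ratio of at least 1.5, 4 with level-wise centring, 4 with a pseudocount of 1 (Fadd at 0.97 and Ripk3 at 0.85 were not called), 2 under median centring, 2 with a trimmed mean removed and 1 at a ratio of at least 4. It was 4 of the 6 genes left at a minimum of 1 RPKM and 5 of the 7 left with RPKM strictly above 0.25, where fewer genes were tested. The median log2 ratio, over the genes tested in each setting and 1.22 as reported, was 0.69 under median centring, 0.68 with the trimmed mean removed, 1.27 as TPM, 0.96 with level-wise centring, 1.15 at a minimum of 1 RPKM, 1.195 at 0.25 RPKM in either library with a pseudocount of 0.25, 1.02 with a pseudocount of 1 and 1.19 with RPKM strictly above 0.25, an alternative chosen after seeing the data because Fadd stood exactly at 0.25. Of the other pathway genes, 26 were higher as reported, 12 under median centring, 12 with the trimmed mean removed, 12 with level-wise centring and 7 at a ratio of at least 4, and 4 were lower as reported, 11, 12 and 10 under those scalings, 0 at a ratio of at least 4 and 8 at a ratio of at least 1.5. Over all genes, 3056 were higher as reported, 1634, 1594 and 1229 under those scalings, 1958 at a minimum of 1 RPKM, 1976 with a pseudocount of 1, 826 at a ratio of 4 and 4586 at a ratio of 1.5, and 545 were lower as reported, 1282, 1322, 1310, 111 and 1092 under the scalings and ratios in that order. As shares of the genes tested in each setting, those higher were 31.5% as reported and 33.0% as TPM. The shares were 16.8% under median centring, 16.4% with the trimmed mean removed and 12.7% with level-wise centring. At a minimum of 1 RPKM the share was 25.6%, with a pseudocount of 0.25 it was 28.4% and with a pseudocount of 1 it was 20.4%. At a ratio of 4 it was 8.52%, at a ratio of 1.5 it was 47.3% and with RPKM strictly above 0.25 it was 31.4%. The change of Cflar over Fadd reversed to 0.10 with a pseudocount of 1, which shrinks ratios of low genes such as Fadd. No paired analysis was possible because each group holds 1 library. Depth limits Mlkl and, less so, Fadd and Ripk3, and without replicates variation between cultures cannot be separated from the treatment.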
